A study of Homo sapiens with 12 samples.

Results

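The 10 genes CA9, CA12, NDRG1, EGLN1, EGLN3, BNIP3, BNIP3L, ANKRD37, P4HA1 and KDM3A are textbook targets of the hypoxia-inducible factors (HIFs). They were taken by symbol from the 36601 genes of an RNA-seq table of KP4 cells, a line from a human pancreatic ductal carcinoma labelled WT. The choice was by name and not by a cut on measured values, but earlier results of these data were known when it was made. The cells had received DMSO (vehicle), 10 mM metformin (Met), 5 nM FK866 (FK) or both drugs (Met+FK) for 24 h, with 3 libraries per treatment, and the design asked how the transcriptome differed between these treatments. Metformin is a known inhibitor of respiratory complex I in mitochondria, and FK866 inhibits NAMPT, the enzyme that salvages nicotinamide into NAD. The labels gave no oxygen level, so the genes are called hypoxia-inducible here by what is known of them and not by a hypoxic culture.

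Of the 10 genes, 9 reached an average of 10 normalized counts and were tested. With Met, NDRG1, KDM3A, ANKRD37 and BNIP3L rose, each by over 1.5-fold (BNIP3L by less once its dependence on GC content was taken out), while CA12, BNIP3 and EGLN3 did not pass the test and CA9 was hardly detected. In the fit of all libraries NDRG1 was the 1 of the 9 to pass the test and rise by over 1.5-fold with FK. EGLN3 was 1.65-fold higher with FK but did not pass. NDRG1 was also the 1 to pass when FK was added to Met. Other settings changed both counts, and the change of ANKRD37 on adding FK to Met was of the same size. EGLN3 was lower with Met+FK than with FK under every alternative that tested it, and lower than with DMSO under 18 of 23, and it was scarce in every library.

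When oxygen is plentiful, the EGLN prolyl hydroxylases mark the alpha subunits of HIF, and the VHL ubiquitin ligase then has them degraded. When oxygen is short, or the hydroxylases lack iron or 2-oxoglutarate, the alpha subunit persists, pairs with ARNT and binds short DNA motifs near its target genes. The targets adjust glucose use, acid export, mitochondrial turnover, collagen processing and histone demethylation, and EGLN1 and EGLN3 are themselves targets that close a feedback loop. Pancreatic ductal tumours are known for poorly oxygenated tissue.

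The bases around the start sites are shown because they hold the letters to which HIF is known to bind, ACGTG or GCGTG, which were searched on both strands and can overlap within CACGTG. RefSeq promoter windows (GRCh38.p14, 250 bases before to 50 after a start site) matched 8 of the 10 genes, namely all but NDRG1 and BNIP3L. KDM3A had 2 windows, and only the window that starts first along the chromosome was counted. ACGTG was in 5 of the 8 windows, against 21.4% of 35116 windows in the genome, and either motif was in 7, against 48.4%. EGLN3 had neither. ANKRD37 had 3 matches to ACGTG, a number reached by 1.98% of windows, and BNIP3 had 6 matches to either motif, a number reached by 0.923%. Such a match is a description of the letters and not a site shown to be bound. In the stretches of 30 bases below, capitals mark the matches. Each stretch lies just before or within 165 bases before the start site of its RefSeq window. The stretch of ANKRD37 and the end of that of CA9 lie inside the gene spans given further below.
CA9, chr9:35673898-35673927, plus strand: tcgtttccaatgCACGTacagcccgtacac
EGLN1, chr1:231422288-231422317, minus strand: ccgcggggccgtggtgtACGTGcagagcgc
BNIP3, chr10:131982038-131982067, minus strand: gCACGCgccgCACGTGccaCACGCacccca
ANKRD37, chr4:185396676-185396705, plus strand: ctcCACGTGccagtgtttgtgtACGTGcgg
Among the 7 genes with such letters, ANKRD37 and KDM3A rose with Met by over 1.5-fold, and EGLN1 and P4HA1 by under 1.5-fold. CA12 and BNIP3 did not pass the test and CA9 was near 0, as given next. A link between the letters and the response was not tested.

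Normalized counts, the read pairs of a gene divided by a size factor of the library, are given for replicates 1, 2 and 3 in that order, and differences were tested with limma-trend, adjusted with the Benjamini-Hochberg method over 15376 genes. A gene is said to rise or fall at an adjusted p-value under 0.05, and a differentially expressed gene (DEG) also changed by over 1.5-fold. All comparisons with DMSO share its 3 libraries, so they are not independent of each other.

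NDRG1 (ENSG00000104419, hg38 chr8:133237171-133302022) encodes a stress-responsive protein of the NDRG family that is induced by hypoxia, by iron chelation and by other stresses. It had 1792, 1647 and 1695 normalized counts with DMSO and 2537, 2746 and 2478 with FK. It had 3596, 3293 and 3602 with Met and 4844, 4937 and 4916 with Met+FK. The 4 treatments formed 4 separate steps in this order, with no overlap between any pair of them. NDRG1 rose 2.04-fold with Met, by 1.03 on the log2 scale (SE 0.071, adjusted p = 6.21e-08), and 1.51-fold with FK (log2 fold change 0.60, SE 0.071, adjusted p = 0.000342). With Met+FK it rose 2.86-fold over DMSO (log2 fold change 1.52, adjusted p = 9.17e-10), and its single-drug changes sum to 1.63. It was also 1.35-fold higher with Met than with FK (adjusted p = 0.000231).

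KDM3A (ENSG00000115548, chr2:86440647-86492716) encodes a demethylase that removes methyl groups from lysine 9 of histone H3 and needs oxygen to do so. It had 1229, 1424 and 1283 normalized counts with DMSO and 1668, 2084 and 1736 with FK. With Met it had 2555, 2273 and 2093, and with Met+FK 2982, 2793 and 2419.5. Each drug treatment lay above DMSO in every library, and Met overlapped only with Met+FK. KDM3A rose 1.76-fold with Met (log2 fold change 0.81, SE 0.11, adjusted p = 2.57e-05), 1.39-fold with FK (0.48, SE 0.11, adjusted p = 0.019) and 2.08-fold with Met+FK (1.05, SE 0.11, adjusted p = 1.7e-06). The change with FK was 0.30 (adjusted p = 0.016) with each library's dependence on GC content and length taken out (the GC and length trend), over 1.5 times smaller. The call was lost without DMSO replicate 1, DMSO replicate 3 or FK replicate 2, and with only the compared libraries fitted (values from 0.30 to 0.54 over all alternatives).

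ANKRD37 (ENSG00000186352, chr4:185396021-185400628) encodes a small ankyrin-repeat protein. Its normalized counts were 47.3, 68.0 and 49.1 with DMSO, 81.2, 72.5 and 88.4 with FK, 96.2, 98.3 and 86.2 with Met, and 128, 134 and 143 with Met+FK. As for NDRG1, Met+FK lay above every other library and DMSO below every other library, while Met and FK overlapped. It rose 1.71-fold with Met (log2 fold change 0.78, SE 0.16, adjusted p = 0.000868), 1.48-fold with FK (0.56, SE 0.16, adjusted p = 0.0297) and 2.47-fold with Met+FK (1.30, SE 0.16, adjusted p = 8.62e-06). Its call with FK was lost without any 1 of DMSO replicates 1 and 3 and FK replicates 2 and 3, with values from 0.47 to 0.73. It was also lost with all genes of any value above 0 tested, and with only the compared libraries fitted. ANKRD37 overlaps UFSP2, a gene on the opposite strand, which rose by 0.44 with Met (adjusted p = 0.00739) and was at 0.19 with FK (adjusted p = 0.247). Whether the counting used strand is not given in the sources used here, so how far their reads mix was not tested.

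BNIP3 and BNIP3L encode related proteins of the outer mitochondrial membrane that mark mitochondria for removal by autophagy. BNIP3L (ENSG00000104765, chr8:26383054-26505636) had 539, 647 and 455 normalized counts with DMSO, 656, 880.3 and 668 with FK, 933, 887 and 743 with Met, and 934, 847 and 764 with Met+FK. It rose 1.57-fold with Met (log2 fold change 0.65, SE 0.14, adjusted p = 0.00162) and 1.56-fold with Met+FK (0.64, adjusted p = 0.00165), and the 2 treatments with metformin overlapped. With FK the change was 0.43 (adjusted p = 0.0477), a call that 11 of 24 alternatives kept. BNIP3L had the lowest GC content of the 10 genes, 37.4%, and without the GC and length trend its change was 0.36 with Met, 0.41 with Met+FK, both under 1.5-fold, and 0.06 with FK (adjusted p = 0.675).
The sister gene BNIP3 (ENSG00000176171, chr10:131966455-131982013) had 604, 642 and 636 with DMSO, 648, 662 and 615 with FK, 589, 591 and 526 with Met, and 669, 629 and 543 with Met+FK. Its libraries with Met lay just below those with DMSO and FK, and those with Met+FK overlapped with all others. No comparison of BNIP3 passed the test, with log2 fold changes from -0.18 to 0.11, but its change with Met passed at -0.24 (adjusted p = 0.00669) without the GC and length trend. PNMA2, on the opposite strand within BNIP3L, rose by 0.78 with Met (adjusted p = 0.000613) and was at 0.01 with FK, and its part in the counts of BNIP3L was not tested.

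EGLN1 and EGLN3 encode the oxygen-dependent prolyl hydroxylases that switch HIF off. EGLN1 (ENSG00000135766, chr1:231363751-231422287) had 2085, 2267 and 2206 normalized counts with DMSO, 2130.3, 2949 and 2364 with FK, 2885, 3026 and 2528 with Met, and 2819, 2866 and 2484 with Met+FK. Every library with metformin lay above DMSO, and FK overlapped with all other treatments. EGLN1 rose 1.28-fold with Met (log2 fold change 0.36, SE 0.11, adjusted p = 0.0126) and 1.24-fold with Met+FK (0.31, adjusted p = 0.0249, kept by 20 of 24 alternatives), while its change with FK was 0.17 (adjusted p = 0.244). The call with Met was lost without DMSO replicate 1 or Met replicate 2, and the fits without 1 library gave changes from 0.31 to 0.44.
EGLN3 (ENSG00000129521, chr14:33924227-34462774) went the other way. Its values were 24.2, 23.6 and 17.4 with DMSO, 37.8, 38.9 and 32.1 with FK, 21.9, 10.4 and 14.2 with Met, and 14.6, 7.41 and 12.7 with Met+FK, from 256 read pairs in all 12 libraries. FK lay above all others, and Met+FK lay below DMSO and overlapped with Met. EGLN3 was lower in Met+FK and in Met than in FK, with log2 fold changes of -1.61 (SE 0.30, adjusted p = 0.000615) and -1.23 (SE 0.30, adjusted p = 0.00522). Its fall of -0.89 in Met+FK against DMSO (adjusted p = 0.0229) was lost with DESeq2 (adjusted p = 0.0605) and without DMSO replicate 1, DMSO replicate 2 or Met+FK replicate 2, with values from -1.07 to -0.57 over all alternatives. Its rise of 0.72 with FK missed the threshold (adjusted p = 0.0888) and passed it with the replicate number as a block (adjusted p = 0.0494). SPTSSA, on the same strand within the span of EGLN3 and with 1045 ± 117 normalized counts with DMSO (SD, n = 3), fell by 0.64 on the log2 scale in Met+FK against FK (adjusted p = 0.00108) and by 0.44 in Met against FK (adjusted p = 0.0147), and its part in the counts of EGLN3 was not tested.

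CA9 and CA12 encode carbonic anhydrases at the cell surface that help tumour cells control pH. CA9 (ENSG00000107159, chr9:35673918-35681159), a much used marker of hypoxic tumour cells, had 3, 2 and 0 read pairs with DMSO, 1, 0 and 0 with FK, and 0 in all 6 libraries with metformin. With 6 read pairs in all, it was not tested and no fold was computed, and its absence cannot be told from scarcity at 30667735 to 41052203 read pairs per library. ARHGEF39, which overlaps CA9 on the opposite strand, had 941 ± 15.6 normalized counts with DMSO (SD, n = 3). Its log2 fold change with Met was -1.61 (adjusted p = 5.68e-07), and its part in the few read pairs of CA9 was not tested. CA12 (ENSG00000074410, chr15:63321378-63381846) had 232, 209 and 280.3 normalized counts with DMSO, 245, 297 and 298 with FK, 210.1, 294 and 301 with Met, and 231, 354 and 283 with Met+FK. All treatments overlapped, and its changes against DMSO, 0.15 with Met, 0.23 with FK and 0.26 with Met+FK, had 95% intervals that reached from -0.22 to 0.62.

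P4HA1 (ENSG00000122884, chr10:73007217-73096974) encodes the catalytic subunit of the hydroxylase that modifies prolines of collagen. It had 977, 1261 and 1009 normalized counts with DMSO, 997, 1529 and 1294 with FK, 1389, 1538 and 1242 with Met, and 1184, 1424 and 1199 with Met+FK, with overlap in every comparison. It rose 1.29-fold with Met (log2 fold change 0.36, SE 0.14, adjusted p = 0.0463), a call that 15 of 24 alternatives kept and that was lost at 0.15 (adjusted p = 0.137) without the GC and length trend. With FK its change was 0.22 (adjusted p = 0.249), or adjusted p = 0.0478 with the replicate block, and -0.05 without the trend.

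**Figure D1:**
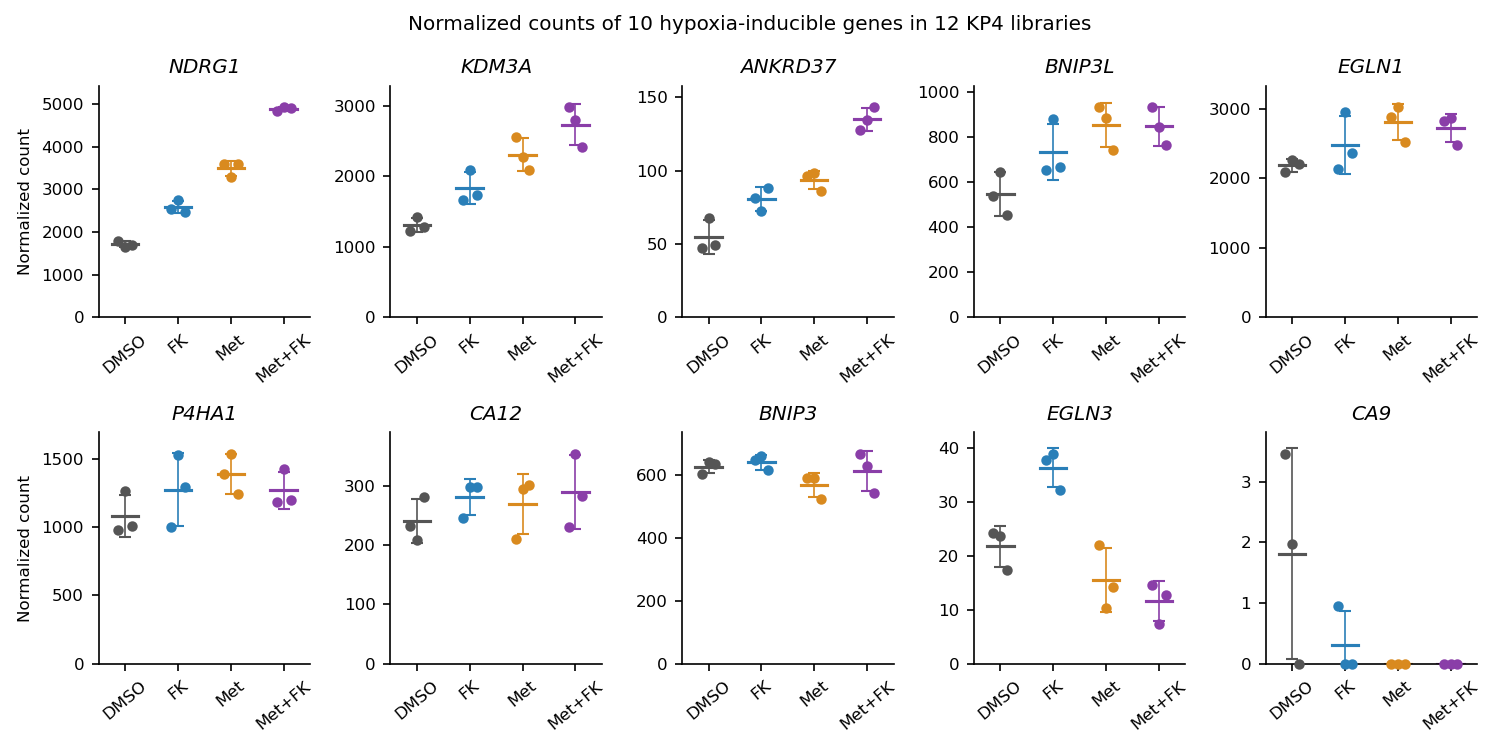
Normalized counts (y axis, each panel with its own linear scale from 0) of the 10 genes by treatment (x axis), with 1 point per library, a bar at the mean and whiskers of 1 SD (n = 3). NDRG1 forms 4 steps from 1712 with DMSO to 4899 with Met+FK, KDM3A and ANKRD37 follow the same order of means, and EGLN3 is highest with FK.

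Met raised 4 of the 9 tested genes as DEGs (NDRG1, KDM3A, ANKRD37 and BNIP3L) and lowered 0, against 12.8% of all genes called higher and 10.2% called lower in this comparison. At the adjusted p-value alone, EGLN1 and P4HA1 made it 6 of 9 higher, against 24.9% of all genes, with 0 lower, against 25.9%. No member lay at an unadjusted p-value under 0.05 in the lower direction, and edgeR and DESeq2 also called 0 lower. The libraries with Met lay above all with DMSO for 5 of the 9 genes and below for 1, against 27.5% and 29.4% of all genes. The median log2 fold change of the 9 genes was 0.36, beside 0.01 for all genes tested.

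FK raised 1 of the 9 genes as a DEG, NDRG1, against 2.73% of all genes, and lowered 0, against 0.754%, by limma-trend, edgeR and DESeq2 alike and with 0 lower at an unadjusted p-value under 0.05. At the adjusted p-value alone, NDRG1, ANKRD37, KDM3A and BNIP3L rose, 4 of 9 against 11.3% of all genes, and 0 fell, against 9.84%. The libraries with FK lay above all with DMSO for 5 of the 9 genes, namely these 4 and EGLN3, against 17.2% of all genes, and below for 0, against 21.6%. The count of DEGs was 2 with the replicate block, where EGLN3 passed (3.51% of all genes were then higher), and 2 with equal library totals or TMM scaling, where ANKRD37 reached 0.59 (3.11% and 3.14% of all genes). The median of the 9 genes was 0.43, beside -0.02 for all genes. Without FK replicate 2 the change of NDRG1 was 0.55 (adjusted p = 0.000818), just under the fold threshold, so the count of DEGs was 0. Without DMSO replicate 2 NDRG1 was also under the fold threshold, and ANKRD37, at 0.73, was the 1 DEG. The log2 values of FK replicate 2 had the steepest fall with GC content of the 12 libraries. Its slope was -0.25 per 10 percentage points, against 0.04 to 0.20 with DMSO, and the part of this slope in the changes with FK was not tested. Without the GC and length trend NDRG1 rose by 0.73 with FK, ANKRD37 by 0.60 and KDM3A by 0.30.

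Met+FK raised NDRG1, ANKRD37, KDM3A and BNIP3L over DMSO as DEGs, 4 of 9 against 13.7% of all genes, and lowered EGLN3, 1 of 9 against 11.3%. BNIP3L fell under the fold threshold without the GC and length trend, and EGLN3 was lost with DESeq2, as given above. At the adjusted p-value alone 5 rose, EGLN1 being the added gene, against 26.1% of all genes, and 1 fell, also against 26.1%. The libraries with Met+FK lay above all with DMSO for 5 genes and below for 1, against 30.5% and 30.4% of all genes. Against FK alone, NDRG1 rose 1.9-fold (log2 fold change 0.92, adjusted p = 1.43e-07) and ANKRD37 1.67-fold (0.74, adjusted p = 0.00159), 2 of 9 against 9.27% of all genes. KDM3A rose 1.49-fold (0.58, adjusted p = 0.000556), under the fold threshold, which made it 3 of 9 at the adjusted p-value alone, against 20.5%. As DEGs, edgeR called 3 of 9 higher, against 9.6% of all genes. DESeq2 called 2, against 7.81% of the genes to which it gave an adjusted p-value. EGLN3 was the 1 of 9 lower, against 9.29% of all genes as DEGs and 21.7% at the adjusted p-value alone. The libraries lay above those with FK for 3 genes and below for 1, against 24.9% and 26% of all genes. Between the single drugs, EGLN3 was lower with Met, 1 of 9 against 7.03% of all genes, and NDRG1 and KDM3A were higher with Met by 0.43 and 0.34, both under 1.5-fold, so 0 were DEGs in that direction by limma-trend, edgeR or DESeq2, against 8.08%. At the adjusted p-value alone these made 2 higher, against 17.2% of all genes, and 1 lower, against 19.5%, and 2 genes lay above and 2 below without overlap, against 21.2% and 22.7%.

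Adding FK to Met called few genes, 14 higher at the adjusted p-value alone, or 0.0911% of all genes, and NDRG1 was 1 of them. It rose 1.4-fold from 3497 ± 177 to 4899 ± 48.9 normalized counts (SD, n = 3), by 0.49 on the log2 scale (SE 0.071, 95% interval 0.34 to 0.64, adjusted p = 0.0185). This was under the 1.5-fold threshold, so 0 of the 9 genes were DEGs by limma-trend, edgeR or DESeq2, against 0.052% of all genes higher and 0.0065% lower. The change of NDRG1 lay above that of 98.6% of all genes. The change of ANKRD37 was as large, 0.53 (95% interval 0.19 to 0.86), and its 3 libraries with Met+FK lay above those with Met, but it did not pass (adjusted p = 0.414), nor did KDM3A at 0.24 (95% interval 0.01 to 0.47, adjusted p = 0.71), which passed at 0.27 (adjusted p = 0.0213) with the replicate block and the GC and length trend removed. These were the 3 of 9 genes with an unadjusted p-value under 0.05. NDRG1 and ANKRD37 were the 2 of 9 whose libraries with Met+FK lay above all with Met, against 7.88% of all genes, and 0 lay below, against 5.56%. The call of NDRG1 was lost, with changes from 0.44 to 0.51, without any 1 of the Met and Met+FK libraries other than Met replicate 3.

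**Figure D2:**
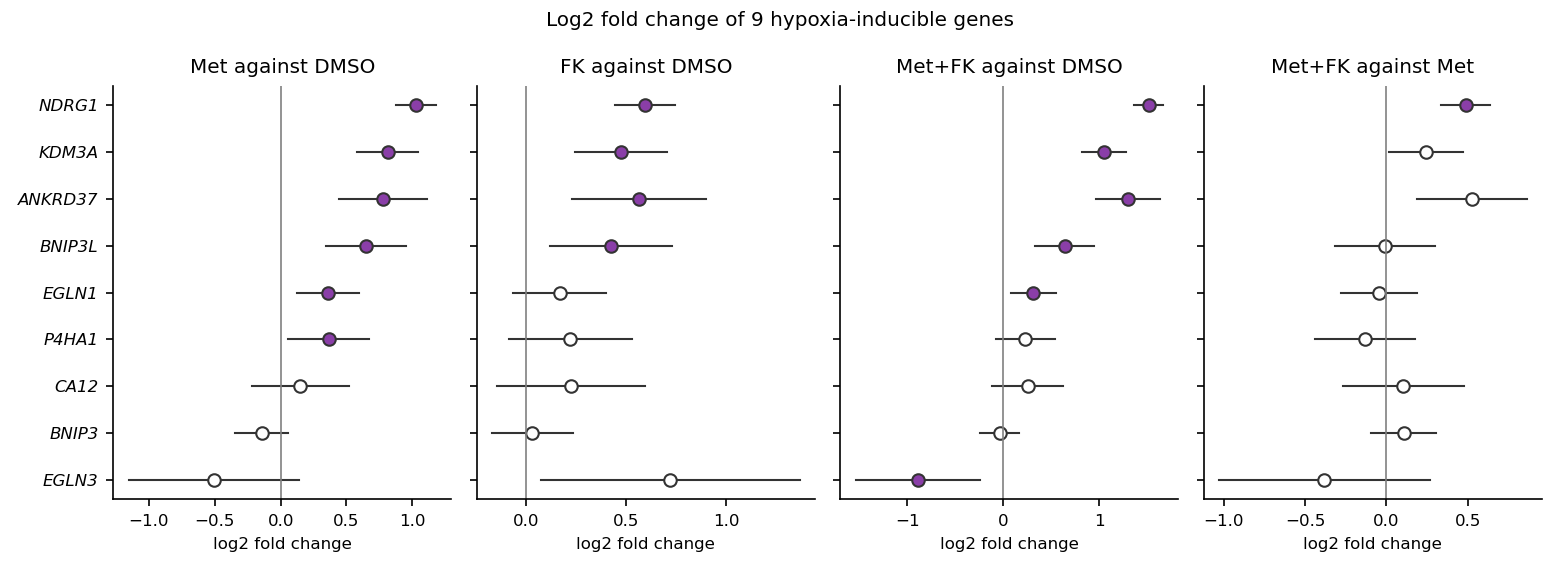
Log2 fold changes (x axis, 0 at the vertical line) of the 9 tested genes in 4 comparisons, as points with 95% intervals, filled where the adjusted p-value was under 0.05. NDRG1 is filled in all 4 panels, from 0.49 in Met+FK against Met to 1.52 in Met+FK against DMSO, and in the last panel no other gene is.

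The effect of FK with metformin minus that without passed the test for 0 of the 9 genes, against 0.0065% of all genes higher and 0.052% lower. EdgeR also called 0, against 0.0065% and 0.0585%, and so did DESeq2, against 2.57% and 3.37% of the genes to which it gave an adjusted p-value. It was -0.11 for NDRG1 (95% interval -0.32 to 0.11) and -0.04 for ANKRD37 (-0.51 to 0.44). EGLN3 at -1.10 (adjusted p = 0.121) and BNIP3L at -0.43 (adjusted p = 0.162) were the 2 genes at an unadjusted p-value under 0.05. With the replicate block, 3 genes passed in the lower direction, EGLN3 (adjusted p = 0.047), BNIP3L (0.029) and P4HA1 at -0.35 (0.0395), 3 of 9 where the same fit called 16.5% of all genes lower and 15.5% higher. Once the GC and length trend was also removed, BNIP3L was at -0.01 and P4HA1 at -0.04, and NDRG1 passed at -0.28 (adjusted p = 0.0361), 1 of 9 against 2.16% of all genes.

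The change of each gene minus that of NDRG1 in the same library was tested across all genes, which removes the scaling of libraries but gives every difference the same NDRG1 values. With Met the rise of NDRG1 exceeded that of BNIP3L, EGLN1, P4HA1, CA12, BNIP3 and EGLN3, by differences from -0.38 (BNIP3L, SE 0.14, adjusted p = 0.0163) to -1.54 (EGLN3, SE 0.30, adjusted p = 7.98e-05). These were 6 of the 8 other genes, against 87% of all genes. KDM3A at -0.22 (95% interval -0.46 to 0.02, adjusted p = 0.0796) and ANKRD37 at -0.25 (-0.63 to 0.13, adjusted p = 0.197) were not distinguished from it. Without the GC and length trend KDM3A was lower at -0.52 (adjusted p = 3.44e-06), and it also passed with the replicate block (adjusted p = 0.0251), while ANKRD37 passed with both together (-0.35, adjusted p = 0.0412). BNIP3L was at -0.79 without the trend, and its difference was lost without DMSO replicate 2 or Met replicate 3, with values from -0.50 to -0.22 in the fits without 1 library. No gene of the set rose more than NDRG1, against 1.29% of all genes.

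With FK, 3 of the 8 genes rose less than NDRG1, against 72% of all genes, namely BNIP3 (-0.56, adjusted p = 0.000191), EGLN1 (-0.43, adjusted p = 0.00258) and P4HA1 (-0.37, adjusted p = 0.0256). ANKRD37 at -0.03 (95% interval -0.41 to 0.35), KDM3A at -0.12 (-0.36 to 0.12), BNIP3L at -0.17 (-0.46 to 0.12), CA12 at -0.37 (adjusted p = 0.0563) and EGLN3 at 0.13 (-0.51 to 0.76) did not pass. Without the GC and length trend KDM3A (-0.44), BNIP3L (-0.67) and CA12 (-0.53) were lower than NDRG1 as well. The difference of P4HA1 was lost without DMSO replicate 2 or FK replicate 1, with values from -0.48 to -0.22. None passed the test for a larger rise than that of NDRG1 with FK, against 0.371% of all genes, though the estimate for EGLN3 was larger.
When FK was added to Met, 6 of the 8 genes changed less than NDRG1, against 81.5% of all genes, from -0.38 for CA12 (adjusted p = 0.0436) and BNIP3 (adjusted p = 0.00581) to -0.87 for EGLN3 (adjusted p = 0.0137). ANKRD37 differed by 0.04 (95% interval -0.34 to 0.42), and KDM3A by -0.24 (-0.48 to -0.01, adjusted p = 0.0549, or 0.0131 with the replicate block). The difference of CA12 was lost without any 1 of 5 libraries (values from -0.57 to -0.24) and that of EGLN3 without Met replicate 1 or Met+FK replicate 2 (values from -1.06 to -0.60). None passed the test for a larger rise than that of NDRG1, against 0.013% of all genes. In Met+FK against DMSO, 7 of the 8 were lower, against 95.2% of all genes (0.728% were higher), and the remaining ANKRD37 was at -0.21 (-0.59 to 0.17). In Met+FK against FK the same 7 were lower, against 86.9% (1.42% were higher), and in Met against FK CA12, BNIP3 and EGLN3 were, 3 of 8 against 60.6% (4.21% were higher). The effect of FK with metformin minus that without differed from that of NDRG1 for 0 of the 8, against 0.013% of all genes higher and 0.026% lower. In these fits ANKRD37 was not distinguished from NDRG1 in any comparison, with intervals that reach to differences of -0.63 and 0.61.

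**Figure D3:**
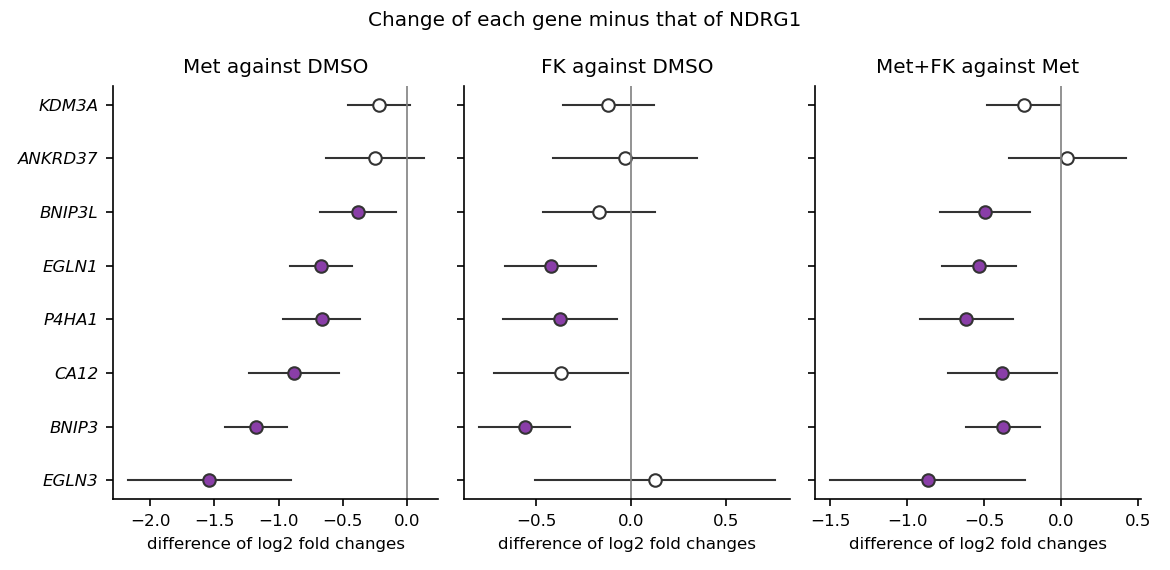
Log2 fold change of each of 8 genes minus that of NDRG1 (x axis, 0 at the vertical line) in 3 comparisons, as points with 95% intervals, filled where the adjusted p-value was under 0.05. Most points lie left of 0, down to -1.54 for EGLN3 with Met, and ANKRD37 is open in all 3 panels.

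Levels of different genes were compared as normalized counts per kilobase of the Ensembl canonical transcript. NDRG1 was highest in each treatment, at 566 ± 24.4, 855 ± 46.5, 1156 ± 58.4 and 1620 ± 16.2 per kilobase with DMSO, FK, Met and Met+FK (SD, n = 3), and its libraries did not overlap with those of EGLN1, the next gene, which had 504 ± 21.3, 572 ± 97.3, 649 ± 59.1 and 628 ± 48.0. With DMSO, BNIP3 at 407 and P4HA1 at 395 followed and overlapped, then KDM3A at 281, BNIP3L at 159, ANKRD37 at 69.9, CA12 at 39.4, EGLN3 at 8.04 and CA9 at 1.17 without overlap between neighbours. With Met+FK, KDM3A at 585 came next after EGLN1 and overlapped with EGLN1 and with P4HA1 at 463, which overlapped with BNIP3 at 398. From BNIP3L on, the order of the lower 5 genes was the same in every treatment.

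Likeness to NDRG1 was described by Pearson's r of log2 normalized counts over the 12 libraries, which share 4 treatment means. Among the 11520 genes averaging 100 or more, the highest were RNF19B (r = 0.994), ATF3 (0.989), KLF4 (0.989), PACC1 (0.986) and STC2 (0.986), and the lowest was BEND3 (-0.984). RNF19B went from 4511 ± 104 with DMSO through 5812 ± 21.7 with FK and 7823 ± 394 with Met to 10103 ± 75.6 with Met+FK (SD, n = 3). STC2 went from 327 ± 23.1 through 561 ± 59.2 and 1144 ± 106 to 1619 ± 102. Among the HIF targets of the set, KDM3A (r = 0.952) ranked 68 of 15375 genes and ANKRD37 (0.93) ranked 215, followed by BNIP3L (0.785), EGLN1 (0.687), P4HA1 (0.441), CA12 (0.356), BNIP3 (-0.303) and EGLN3 (-0.584).

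The other genes of the HIF pathway were taken from lists of known members. Their counts can be read against all genes, of which 12.8% were DEGs higher and 10.2% lower with Met (24.9% and 25.9% at the adjusted p-value alone), and 2.73% and 0.754% with FK (11.3% and 9.84%). Of 8 tested HIF subunits and regulators, EPAS1, which encodes the alpha subunit of HIF-2, was the 1 DEG with Met (log2 fold change 0.59, adjusted p = 5.16e-05, against 12.8% of all genes). This lay just over the fold threshold, with values from 0.53 to 0.66 in the fits without 1 library, and with Met+FK its change was 0.54, under the threshold (adjusted p = 9.53e-05). The gene of the HIF-1 alpha subunit, HIF1A, was at -0.09 with Met (adjusted p = 0.695) and at 0.35 with FK (adjusted p = 0.137). VHL rose by 0.37 and ARNT2 by 0.36 with Met, EGLN2, a further HIF hydroxylase, fell by 0.46 with Met and by 0.48 with FK (adjusted p = 0.0157, lost in 3 of the fits without 1 library), and ARNT, HIF1AN and CITED2 did not pass with either drug.

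Of 20 targets in glucose uptake and glycolysis, 7 were DEGs lower and 1 higher with Met, against 10.2% and 12.8% of all genes, and 13 fell and 4 rose at the adjusted p-value alone, against 25.9% and 24.9%, with a median of -0.36. SLC16A3, the lactate exporter, fell by 1.12 (adjusted p = 4.7e-06), PGAM1 by 0.87 and ALDOC by 0.79 (adjusted p = 0.0332), the last being lost in 4 of the fits without 1 library. The 1 higher DEG was HK2, a hexokinase (0.66, named after its value was seen). With FK 5 fell and 1 rose at the adjusted p-value alone, against 9.84% and 11.3%, all by under 1.5-fold, with a median of -0.19.

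Of 14 tested secreted, vascular and matrix targets, STC2 (1.80), a secreted glycoprotein, and LOX (1.21), which cross-links collagen, were higher with Met, and EDN1 (-1.07) and ANGPTL4 (-0.69, named after its value was seen) were lower, 2 of 14 each way against 12.8% and 10.2% of all genes, with a median of -0.04. The call of EDN1 was lost in 4 of the fits without 1 library, with values from -1.33 to -0.91. With FK, 4 of 14 were higher, against 2.73% of all genes, namely IGFBP3 (1.02), STC2 (0.77), LOX (0.71) and VEGFA (0.63, named after its value was seen), and the median was 0.08. The call of LOX with FK was lost in 5 of these fits, with values from 0.46 to 0.93. ADM, the vasodilator adrenomedullin, rose 1.61-fold when FK was added to Met, from 520.5, 451 and 481 normalized counts to 942, 719 and 700.5 (log2 fold change 0.69, adjusted p = 0.0223), and this call was lost in 5 fits without 1 library. With Met alone it fell by 0.47. Of 19 other targets, 9 rose and 2 fell with Met at the adjusted p-value alone, against 24.9% and 25.9% of all genes, and the median was 0.20. Of the 19, 4 were DEGs higher with Met, against 12.8% of all genes, and 0 were DEGs lower, against 10.2%. The 4 were DDIT4 (1.87), NDUFA4L2 (1.44), MXI1 (1.16) and VLDLR (0.84, named after its value was seen). With FK 5 rose and 2 fell, against 11.3% and 9.84%, all by under 1.5-fold.

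The genes of the stress factor ATF4 were set beside these because STC2, DDIT4, VLDLR and ERO1A are known targets of both pathways. All 12 ATF4 targets on the list were DEGs higher with Met, against 12.8% of all genes, with a median of 2.12 and NUPR1 (3.01), DDIT3 (2.82) and TRIB3 (2.63) in the lead. With FK 3 of 12 were, against 2.73% of all genes, ATF3 (1.33), SLC7A11 (1.04) and ASNS (0.83), and the median was 0.33. The part of either factor in the change of NDRG1 was not tested. Among 15 tested relatives of the 10 genes, CA5B (1.02), NDRG4 (0.97) and JMJD1C (0.67) were higher with Met and NDRG2 (-1.16) and CA2 (-0.93) lower, against 12.8% and 10.2% of all genes, and 2 rose with FK, CA2 (0.38) and CA5B (0.32), both by under 1.5-fold (JMJD1C and CA2 were named after their values were seen).

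**Figure D4:**
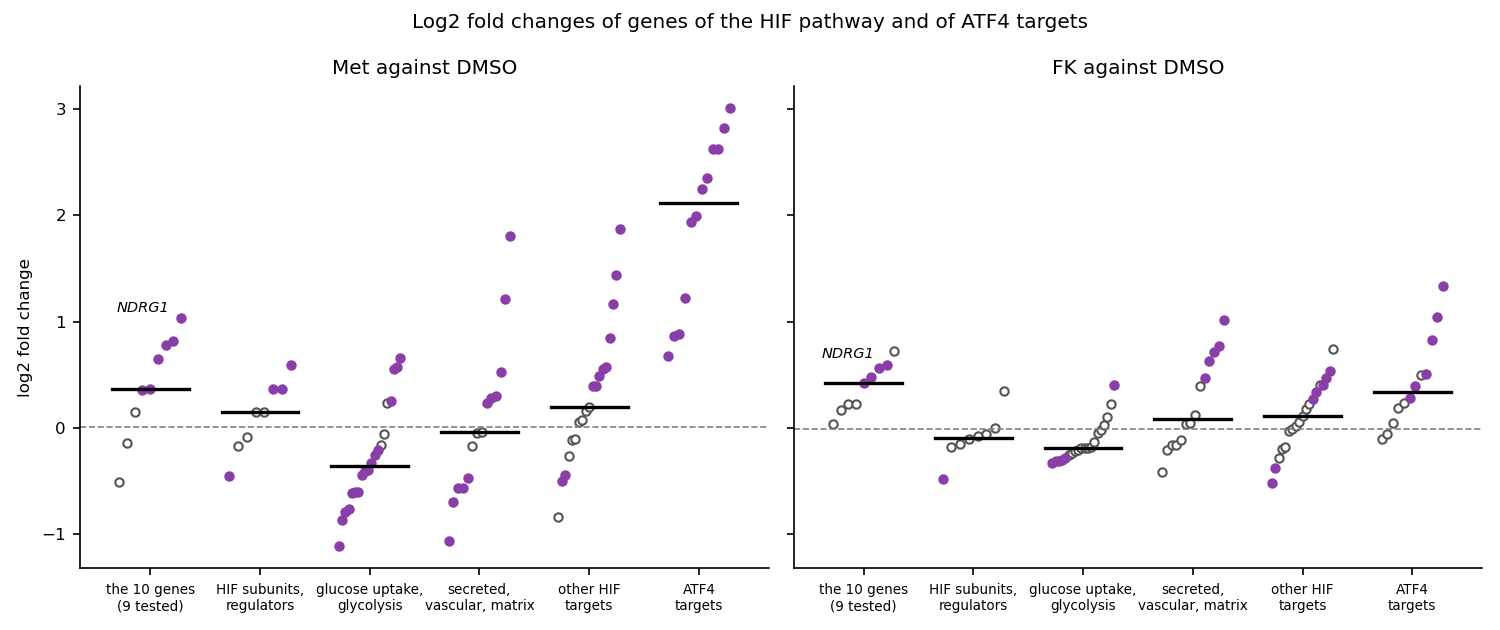
Log2 fold changes (y axis) with Met and with FK against DMSO of the 9 tested genes and 5 gene lists (x axis), with 1 point per gene in rising order, filled where the adjusted p-value was under 0.05, a bar at each list's median and a dashed line at the median of all genes. With Met the glycolysis median is -0.36 and the ATF4 median 2.12, with the 9 genes at 0.36 between them.

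As a check of the label, VIM had 93661 to 121917 normalized counts and the epithelial keratin gene KRT18 9398 to 18721, while the epithelial marker EPCAM had 3.78 to 12.5. The 8 ductal and epithelial markers summed to 25327 to 26266 with DMSO, 19378 to 22878 with FK, 16512 to 19694 with Met and 16238 to 19672 with Met+FK. They did not move together, as the log2 fold changes with Met of the 7 tested ran from -1.26 to 1.07. The 5 mesenchymal markers summed to 115880 to 125865 with DMSO and 98548 to 103615 with Met. Of 11 markers of other pancreatic and stromal cells, CPA1, AMY2A and INS were at 0 in every library, and the list summed to 1610.2 to 1706 with DMSO, 1521 to 1608 with FK, 1223 to 1255 with Met and 1264 to 1302 with Met+FK, of which CD68 made up 721 or more. In bulk RNA, fewer cells with a transcript and less of it per cell cannot be told apart, and the labels do not say whether the libraries of a treatment came from separate cultures, so the p-values measure the spread between these libraries.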

How the data were processed

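RNA-seq of KP4 cells was analysed from 12 libraries, 3 for each of 4 treatments, grouped by the labels. The authors used cutadapt for trimming, STAR for alignment, featureCounts for counting and DESeq2 for normalization, and the deposited values are a signal, read pairs divided by a size factor of the library. The annotation and the strand setting are not given in the sources used here. Multiplied back, 100% of values were whole read pairs within 0.01, and libraries held 30667735 to 41052203 read pairs (median 34767231).

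Values were tested as log2(normalized count + 1) with limma-trend (limma 3.58.1, R 4.3.3) over the 15376 genes that averaged 10 or more, all treatments in 1 fit, with Benjamini-Hochberg adjustment. Fold changes are on that scale, which understates changes of low genes. The differences from NDRG1 were fitted on each gene's log2 value minus that of NDRG1. The tests were checked on simulated data. Alternatives were pseudocounts of 0.1 and 10, other filters and scalings, a replicate block, removal of a loess trend on GC content and length, only the compared libraries, leaving out each library, edgeR 4.0.16 (which called 3524 DEGs with Met, 616 with FK and 3881 with Met+FK against DMSO, where limma-trend called 3530, 536 and 3855) and DESeq2 1.42.0, both on the recovered counts.

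Same-numbered libraries deviated together in FK against DMSO (r = 0.252, 0.42 and 0.219) and in Met+FK against Met (0.171, 0.2 and 0.226), each over 0.1, and not in every pair of the other comparisons. With the GC and length trend removed, r was 0.136, 0.172 and 0.132 in FK against DMSO and 0.117, 0.142 and 0.122 in Met against FK. In Met+FK against Met it was then 0.157, 0.0963 and 0.0708, so not each over 0.1. The labels do not tie the numbers to a shared culture or day. Genes named are the 10 genes, the 5 most like and the 1 least like NDRG1, all HIF regulators, up to 3 DEGs per list with the largest change with Met and with FK, and list genes called in Met+FK against Met or in the difference of FK effects. The genes, lists and tests were chosen with earlier results of these data known.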

Additional observations from a re-analysis of the deposited data

Results flagged for a closer look

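ATF3, a stress-induced transcription factor and 1 of the genes most like NDRG1, was the list gene for which the effect of FK differed between cells with and without metformin. It had 625.5, 610 and 671 normalized counts with DMSO, 1611, 1719 and 1479.6 with FK, 4030.2, 3792 and 3939.5 with Met, and 5911, 6441 and 6230.3 with Met+FK. FK raised ATF3 by 1.33 on the log2 scale over DMSO and by 0.66 over Met, a difference of -0.67 (limma-trend, adjusted p = 0.0407). In the fits without 1 library the difference kept its size, -0.73 to -0.62, and its call was lost in 11 of 12.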

How the results depend on the processing

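Over all alternatives no called value of the 10 genes changed sign. The change of NDRG1 kept its call in each of the 12 fits without 1 library with Met (1.003 to 1.07), FK (0.55 to 0.63), Met+FK against DMSO (1.49 to 1.55), Met+FK against FK (0.89 to 0.97) and Met against FK (0.40 to 0.48), and in 7 of 12 for Met+FK against Met (0.44 to 0.51). Its difference of FK effects ranged from -0.15 to -0.06 in those fits and passed at -0.28 with the GC and length trend removed and the replicate block. The number of the 9 genes called higher with FK was 2 with TMM scaling, equal library totals and the replicate block. It was also 2 with the GC and length trend removed, with the block (1.29% of all genes higher) or without it (1.07%). At the adjusted p-value alone it was 4, and without 1 library it was 0 to 1. Without DMSO replicate 2 the 1 gene called was ANKRD37 and not NDRG1. EGLN3, the 1 gene lower in Met+FK against DMSO, left the count at 0 with a pseudocount of 10, all genes tested, at least 10 counts in every library (which removed EGLN3) or DESeq2, and at 0 to 1 without 1 library. The filter of 10 counts in every library likewise left 0 lower in Met+FK against FK and in Met against FK. At the adjusted p-value alone, 1 was higher in Met+FK against Met and 2 in Met against FK. With the replicate block 3 passed lower in the difference of FK effects, and 1 with the GC and length trend also removed. Counts higher without 1 library were 3 to 4 with Met, 3 to 4 with Met+FK and 2 to 3 in Met+FK against FK. Shares of all genes are not given for the fits without 1 library, so these counts only describe how the calls moved. The cause of these changes was not tested, apart from the filter that removed EGLN3. Depth limits CA9 and EGLN3.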
